A study of Mus musculus with 45 samples.

Results

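The genes of the DNA replication machinery were followed through lymphocytes of the immunized draining lymph node. A list of 46 genes by symbol defined them, and all 46 were found among the 55450 genes of the count table. They comprised 11 genes of origin licensing, 8 of helicase activation, 9 of the DNA polymerases and primase, 6 of the sliding clamp and its loader, 3 of Okazaki fragment processing, 3 of single-strand binding, 3 of chromatin assembly and 3 of fork protection. The rule takes genes by symbol and uses no measured value, but the members were chosen with earlier results of these data known.

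A cell prepares to copy its genome by loading the MCM helicase onto origins, a step called licensing that requires the origin recognition complex, Cdc6 and Cdt1. Kinases and accessory factors then switch the helicase on, the DNA polymerases copy both strands, and the clamp, nucleases and ligase finish the lagging strand while histone chaperones rebuild chromatin behind the fork. In germinal centers, antigen-specific B cells divide rapidly with help from follicular helper T cells, whereas resting lymphocytes hold many of these genes low. Transcription of many replication genes is controlled by E2F factors as cells enter S phase.

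RNA-sequencing covered 45 samples sorted from the popliteal lymph nodes that drain the hind footpad, where mice had received 50 µg ovalbumin (OVA) and 5 µg lipopolysaccharide (LPS) emulsified in incomplete Freund's adjuvant (IFA), 20 µL in volume. Germinal center (GC) B cells (B220+ GL7+ Fas+) and non-GC B cells (B220+ GL7- Fas-) were taken on day 9, and Tfh cells (TCRβ+ CD4+ PD1+ CXCR5+) and non-Tfh CD4 T cells (TCRβ+ CD4+ PD1- CXCR5-) on day 6. Mice were either WT or S1PR4 KO, the latter with a germline deletion (B6.129P2-S1pr4tm1Dgen/J) that all their cells carry, so that a genotype difference cannot be assigned to the sorted cell itself. Both genotypes had been crossed back to C57BL/6 for at least 10 generations, WT littermates served as controls, and animals of both sexes were 8 to 12 weeks old. Every group, controls included, was immunized. There were 6 samples per group except for non-GC B cells, with 5 WT and 4 KO samples.

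Totals ran from 26299429 to 45548215 expected counts per sample. The targeted gene, S1pr4, had between 505 and 6305 counts in the WT samples and between 0 and 40 in the KO samples. Markers fixed for each population followed the labels. The summed level of 7 GC B cell markers was 1243 to 2176 CPM (counts divided by library size after normalization) in GC B samples and 125 to 183 CPM in non-GC B samples, and that of 7 Tfh markers was 2654 to 4063 CPM in Tfh and 209 to 487 CPM in non-Tfh samples. B cell transcripts were also present in the T cell samples, where 12 B cell markers summed to between 948 and 2154 CPM. Ighm made up a large part of this sum, with means of 937 CPM in WT Tfh and 1169 CPM in WT non-Tfh samples. In bulk samples, fewer cells that express a gene and less RNA per cell cannot be told apart.

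Promoter sequences are shown for 6 members that hold E2F-type motif letters and differ in the results below. Cdc6, Mcm3 and Mcm6 rose in GC B and Tfh cells, whereas Cdt1, Pold1 and Pold3 did not pass the thresholds in GC B cells. RefSeq windows on GRCm38.p6, from 250 bases before to 50 bases after a transcript start, were found for 37 of the 46 members (43 windows). The letters TTTCCCGC, read on both strands (GCGGGAAA), were in 7 of the 43 windows (16.3%), against 1.07% of all 32851 windows. The letters TTTGGCGC (GCGCCAAA) were in 6 (14%), against 0.514% of all windows, and no match of one motif overlapped a match of the other. Either motif was in 12 windows (27.9%), against 1.56% of all. The windows are printed 5′ to 3′ in the direction of the gene, with the motif matches in capitals. They lie at chr11:98907901-98908200 (plus strand, Cdc6), chr1:20820263-20820562 (minus strand, Mcm3), chr1:128359656-128359955 (minus strand, Mcm6), chr8:122567765-122568064 (plus strand, Cdt1), chr7:44548766-44549065 (minus strand, Pold1) and chr7:100121453-100121752 (minus strand, Pold3).
Cdc6: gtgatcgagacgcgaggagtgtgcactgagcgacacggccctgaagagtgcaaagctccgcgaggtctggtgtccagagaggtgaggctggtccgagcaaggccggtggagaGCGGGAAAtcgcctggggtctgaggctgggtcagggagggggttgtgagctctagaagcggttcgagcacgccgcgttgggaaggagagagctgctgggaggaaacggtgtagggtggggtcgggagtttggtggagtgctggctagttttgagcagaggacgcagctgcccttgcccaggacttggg
Mcm3: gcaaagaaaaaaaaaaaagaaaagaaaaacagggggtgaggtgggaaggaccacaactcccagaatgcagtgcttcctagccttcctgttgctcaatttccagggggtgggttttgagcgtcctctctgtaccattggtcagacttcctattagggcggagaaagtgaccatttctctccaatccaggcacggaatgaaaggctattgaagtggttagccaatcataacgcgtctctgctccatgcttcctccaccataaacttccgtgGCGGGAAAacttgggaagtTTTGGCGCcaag
Mcm6: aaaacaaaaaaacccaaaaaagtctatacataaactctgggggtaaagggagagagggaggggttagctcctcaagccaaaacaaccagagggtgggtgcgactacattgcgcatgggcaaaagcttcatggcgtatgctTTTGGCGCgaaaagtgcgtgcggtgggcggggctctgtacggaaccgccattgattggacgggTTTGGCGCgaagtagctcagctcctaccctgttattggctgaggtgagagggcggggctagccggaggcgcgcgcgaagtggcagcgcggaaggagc
Cdt1: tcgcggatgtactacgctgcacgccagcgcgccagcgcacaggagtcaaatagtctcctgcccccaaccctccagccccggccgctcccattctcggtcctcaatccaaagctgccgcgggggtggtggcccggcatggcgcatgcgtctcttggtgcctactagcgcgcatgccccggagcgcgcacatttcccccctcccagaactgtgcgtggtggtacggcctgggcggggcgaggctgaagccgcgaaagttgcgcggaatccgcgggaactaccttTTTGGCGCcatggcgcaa
Pold1: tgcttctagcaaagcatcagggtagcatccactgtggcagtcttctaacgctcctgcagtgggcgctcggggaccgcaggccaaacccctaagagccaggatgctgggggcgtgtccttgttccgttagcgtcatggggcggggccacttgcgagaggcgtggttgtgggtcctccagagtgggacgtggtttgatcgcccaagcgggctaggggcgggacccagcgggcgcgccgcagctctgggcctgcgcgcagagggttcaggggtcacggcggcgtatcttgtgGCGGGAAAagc
Pold3: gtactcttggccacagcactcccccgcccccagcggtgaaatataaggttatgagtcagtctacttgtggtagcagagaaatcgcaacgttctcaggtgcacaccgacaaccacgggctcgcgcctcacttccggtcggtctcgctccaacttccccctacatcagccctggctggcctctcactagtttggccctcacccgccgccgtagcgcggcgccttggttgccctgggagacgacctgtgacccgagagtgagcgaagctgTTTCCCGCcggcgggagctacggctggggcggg
Mcm3 held both motifs and Mcm6 held TTTGGCGC at 2 positions. A match is a description of the letters and not of a bound site. The 6 shown were picked for holding a motif and for rising or not passing the thresholds in GC B cells. They therefore cannot show whether a motif goes with a rise.

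The replication genes were at their highest in GC B cells, next in Tfh cells and far lower in both comparison populations. Averaged over the 46 genes, log2 CPM came to 7.07 ± 0.21 (SD, n = 6) in WT GC B cells, 6.41 ± 0.16 (n = 6) in WT Tfh cells, 4.70 ± 0.21 (n = 6) in WT non-Tfh cells and 4.40 ± 0.06 (n = 5) in WT non-GC B cells. In S1PR4 KO mice it was 7.18 ± 0.19 (n = 6), 6.75 ± 0.15 (n = 6), 4.91 ± 0.27 (n = 6) and 4.48 ± 0.08 (n = 4) in the same order. Together the 46 genes took 0.967% ± 0.122 of all counts in WT GC B cells and 0.254% ± 0.00721 in WT non-GC B cells. The lowest GC B sample, WT replicate 6 at 6.73, still lay above the highest non-GC B sample at 4.59, and the lowest Tfh sample at 6.25 lay above the highest non-Tfh sample at 5.37. This score is a description of the list and was not tested.

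**Figure D1:**
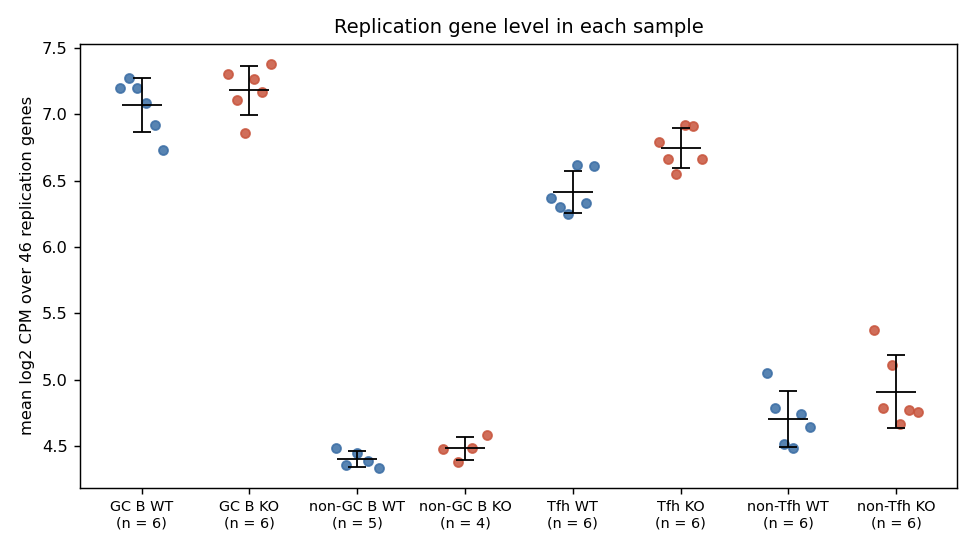
Mean log2 CPM over the 46 replication genes in each of the 45 samples (vertical axis), by group (horizontal axis), with WT in blue, S1PR4 KO in red, and the group mean and SD in black. GC B samples lie between 6.73 and 7.38 and Tfh samples between 6.25 and 6.92, all above the non-GC B and non-Tfh samples, which end at 5.37.

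Levels set per kilobase of annotated exon, with all exons of a gene joined, placed an MCM helicase gene first in GC B and Tfh cells. This length can exceed that of the transcript expressed, so the order of genes depends on it. Per kilobase of exon, Mcm6 was highest in WT GC B cells at 207 ± 28 CPM per kb (SD, n = 6), followed by Mcm3 at 197 ± 27 and Mcm5 at 193 ± 26.1, whose SDs overlap. In WT Tfh cells Mcm6 was again highest, at 161.5 ± 16.2 CPM per kb, ahead of Rpa1, the large subunit of the single-strand binding protein RPA, at 114 ± 5.97. In WT non-GC B cells the order differed, with Pold1, the catalytic subunit of polymerase delta, first at 67.8 CPM per kb and Rpa1 second at 51.7 CPM per kb. Clspn was last there, with 0 counts in all 5 samples, and Mcm10 was next to last at 0.0398 CPM per kb.

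The first comparison asked how the replication genes differ between GC B cells and the B cells outside the germinal center response in WT mice. Of the 46 members, 43 were higher in GC B cells at an FDR under 0.05 (edgeR's quasi-likelihood test, adjusted over all genes tested) and a fold change over 1.5, and 0 were lower. Over the 13324 genes tested, 47.8% passed these thresholds, 24.8% as higher. The median log2 fold change of the members was 2.50, against 0.00 over all genes tested. In 43 members no GC B sample overlapped a non-GC B sample and GC B was higher, which held for 25.4% of all genes tested.

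Markers of other cell types moved in the same comparison. Of 8 plasma cell markers 7 were higher in WT GC B cells, among them the immunoglobulin joining chain gene Jchain (log2 fold change 5.24) and Prdm1 (3.88), a plasma cell transcription factor. Their sum was 4043 to 8886 CPM in WT GC B samples and 512.8 to 860.8 CPM in WT non-GC B samples, with no overlap. Of 10 myeloid markers 6 were tested and 4 were higher, including Lyz2 (1.97) and Csf1r (2.44), with sums of 46.6 to 223.3 and 15.2 to 59.7 CPM. The part of these cells in the shift of the replication genes was not tested.

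Licensing genes showed 10 of 11 members higher, with a median log2 fold change of 2.98. Cdc6, the ATPase that loads the MCM helicase, ranged from 99.5 to 166 CPM in WT GC B samples (median 132). In the 5 WT non-GC B samples it was at 2.04, 0.557, 1.08, 0.0657 and 0.924 CPM. The groups were separated by a wide gap, with a log2 fold change of 7.17 (SE 0.44, adjusted p = 3.81e-08, edgeR). The 6 subunits of the MCM helicase rose together by 2.10 to 3.18 on the log2 scale. Mcm6 ranged from 755.8 to 1105 CPM in GC B samples (median 985) and was at 126.9, 119, 143, 137 and 113 CPM in non-GC B samples, so that every GC B sample was above every non-GC B sample (log2 fold change 2.98, SE 0.12, adjusted p = 1.83e-09, edgeR). Orc1, the origin recognition subunit whose level varies with the cell cycle, rose by 5.04, and Gmnn, the inhibitor that blocks relicensing, by 3.84 on the log2 scale.

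All 8 genes of helicase activation were higher (median log2 fold change 2.56). Mcm10, a factor needed to start unwinding at the origin, ranged from 69.6 to 129 CPM in GC B samples (median 98.5). In the non-GC B samples it was at 0.539, 0.328, 0, 0.558 and 0.107 CPM, and its log2 fold change was 8.39 (SE 0.45, adjusted p = 1.20e-08, edgeR). Cdc45, a subunit of the active helicase, rose by 4.39, while the GINS subunits ran from 0.63 for Gins4 to 3.46 for Gins1. The kinase gene Cdc7 rose by 1.21 and Dbf4, its activating subunit, by 2.81.

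Of the polymerase and primase genes, 7 of 9 were higher (median 1.73). Pole, the catalytic subunit of leading-strand polymerase epsilon, was at 88.4 ± 19.7 CPM (SD, n = 6) in GC B and 8.81 ± 4.45 (n = 5) in non-GC B cells (log2 fold change 3.39, SE 0.32, adjusted p = 1.35e-06, edgeR). All 6 clamp and clamp loader genes were higher (median 1.91), among them Pcna, the sliding clamp, by 2.16, and Rfc4, a clamp loader subunit, by 2.67 (SE 0.14, adjusted p = 9.44e-09, edgeR). All 3 genes that finish Okazaki fragments were higher: Dna2, a nuclease and helicase, by 4.53 (SE 0.20, adjusted p = 2.62e-09, edgeR), the ligase gene Lig1 by 3.98 and the flap nuclease gene Fen1 by 1.93. The 3 RPA subunits rose the least as a group (median 1.31), with Rpa3 up from 12.7 ± 0.7 to 33.8 ± 4.98 CPM (log2 fold change 1.47, SE 0.11, adjusted p = 2.43e-07, edgeR).

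The histone chaperone genes were all higher (median 3.91), with Chaf1a, the large subunit of chromatin assembly factor 1, up from 7.90 ± 1.34 to 167 ± 35.6 CPM (log2 fold change 4.47, SE 0.19, adjusted p = 2.29e-09, edgeR). So were the 3 fork protection genes (median 2.53). Clspn, the checkpoint adaptor claspin, ranged from 16.5 to 42.3 CPM in GC B samples and had 0 counts in all 5 WT non-GC B samples. With 3 counts per library taken as the floor (0.0944 CPM), Clspn was at least 284-fold higher in GC B cells. The median over the 46 members stayed at 2.50 with Clspn at this bound.

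The other 3 members did not pass both thresholds. Cdt1, the licensing factor that brings MCM to the origin, ranged from 74.2 to 93.3 CPM in WT GC B samples (median 82.3) and was at 114, 114.5, 97.4, 110.3 and 94.8 CPM in WT non-GC B samples. Every GC B sample was below every non-GC B sample, and the log2 fold change of -0.28 (SE 0.08, adjusted p = 0.00551, edgeR) passed the FDR but not the fold threshold. The annotated gene Gm20388 overlaps Cdt1 on the same strand, so their reads may be shared. Pold1 ranged from 314.4 to 429.8 CPM in GC B samples and from 313.6 to 364 CPM in non-GC B samples, and the groups overlapped (log2 fold change 0.20, SE 0.09, adjusted p = 0.0688, edgeR). Pold3, an accessory subunit of polymerase delta, also overlapped, at 97.8 ± 6.95 against 83.8 ± 11.8 CPM (log2 fold change 0.29, SE 0.09, adjusted p = 0.016, edgeR).

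Among T cells of WT mice, 38 of the 46 members were higher in Tfh than in non-Tfh cells and 0 were lower, where 43.2% of the 13481 genes tested passed both thresholds, 22.8% as higher. The median log2 fold change was 1.502, all 46 values were above 0 (50% of all genes tested), and 41 members were higher in Tfh cells with no overlap between groups (25.5% of all genes tested). Licensing genes again showed 10 of 11 members higher (median 1.76). Orc1 led them at 20.5 ± 3.61 CPM (SD, n = 6) in Tfh and 2.00 ± 1.40 (n = 6) in non-Tfh cells (log2 fold change 3.35, SE 0.37, adjusted p = 1.35e-06, edgeR). Cdc6 ranged from 52.0 to 81.6 CPM in Tfh samples (median 62.8) and from 3.29 to 16.2 CPM in non-Tfh samples (median 3.97). The largest shift was that of Mcm10, which ranged from 43.7 to 66.3 CPM in Tfh samples (median 48.2) and from 0.64 to 4.82 CPM in non-Tfh samples (median 1.74), a log2 fold change of 4.56 (SE 0.33, adjusted p = 1.59e-08, edgeR).

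In this comparison, too, markers of other cells moved. Higher in WT Tfh samples were 11 of 12 B cell markers (median log2 fold change 2.75), 6 of the 7 plasma cell markers tested (median 3.20) and 4 of the 6 myeloid markers tested (median 1.75). The plasma cell markers summed to 285.2 to 662 CPM in WT Tfh and 117 to 164.5 CPM in WT non-Tfh samples, and the myeloid markers to 37.1 to 96.2 and 12.6 to 43.7 CPM. Their part in the shift was not tested.

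Okazaki fragment genes (3 of 3 higher, median 3.00) and chromatin assembly genes (3 of 3, median 2.97) had the largest medians by role. Dna2 rose by 4.22 (SE 0.34, adjusted p = 4.84e-08, edgeR), from 1.70 ± 1.11 to 31.7 ± 6.22 CPM. Chaf1a rose from 7.58 ± 3.87 to 98.2 ± 11.7 CPM and Clspn from 0.906 ± 0.775 to 14.9 ± 1.74 CPM. Helicase activation (6 of 8, median 1.52), fork protection (2 of 3, median 1.34), the clamp and its loader (5 of 6, median 1.27) and the polymerases (7 of 9, median 0.75) followed. Within the polymerases Pole rose by 2.94, and within the clamp loader Rfc4 by 2.12. Rpa2, the regulatory RPA subunit, led the single-strand binding genes (2 of 3, median 0.64) with a log2 fold change of 0.74.

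Of the 8 members that did not pass both thresholds, Cdc7 (log2 fold change 0.45), Rfc1 (0.35), Rpa1 (0.45) and Timeless (0.21), a fork protection scaffold, had adjusted p-values between 5.04e-06 and 0.0361 (edgeR) but changed by less than 1.5-fold. Cdt1 was at 54.5 ± 5.61 CPM in Tfh and 50.4 ± 6.15 in non-Tfh cells (log2 fold change 0.12, 95% interval -0.08 to 0.31). For Gins4 the log2 fold change was 0.10 (95% interval -0.09 to 0.28), for Pold2, a subunit of polymerase delta, 0.02 (-0.25 to 0.29), and for Pole2, the second subunit of polymerase epsilon, 0.22 (-0.09 to 0.52). Their adjusted p-values ran from 0.186 to 0.884 (edgeR) and their groups overlapped. Of the subunits of polymerase epsilon, Pole stood at 52.7 ± 10.6 CPM in Tfh and 6.89 ± 2.31 in non-Tfh cells, and Pole2 at 18.9 ± 2.61 and 16.3 ± 3.51 CPM. Pole2 and Rfc1 each overlap another annotated gene on the same strand (Gm49384 and Gm43628).

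**Figure D2:**
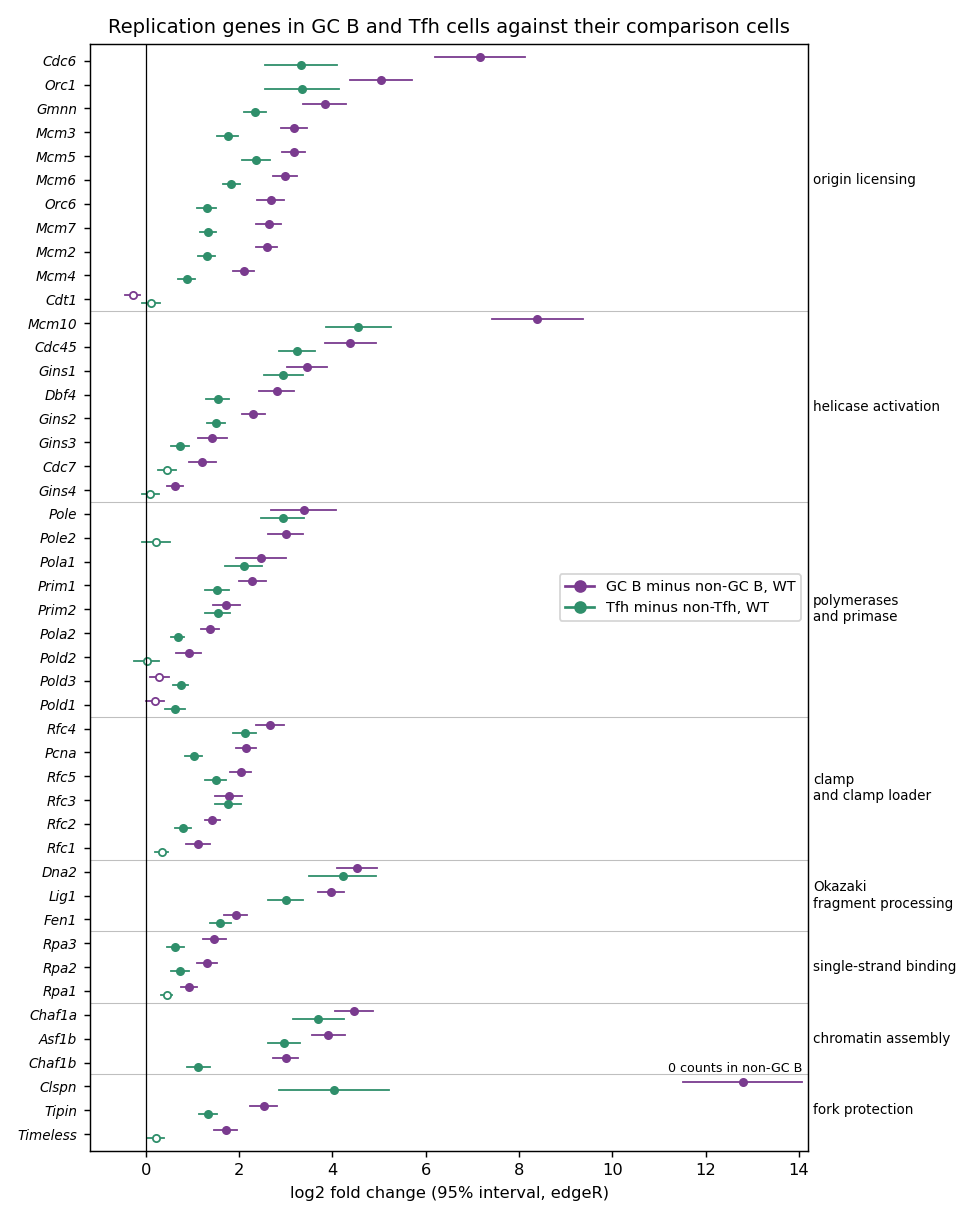
Log2 fold change of each replication gene (horizontal axis, with its 95% interval from edgeR) in GC B against non-GC B cells (purple) and in Tfh against non-Tfh cells (green) of WT mice, with genes grouped by role on the vertical axis. Open circles mark genes that did not pass both thresholds, 3 in B cells and 8 in T cells, and the value of Clspn in B cells is a fit against 0 counts.

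The shift in B cells was larger than that in T cells for most members. An interaction term compared the GC B minus non-GC B difference with the Tfh minus non-Tfh difference in WT mice, and it passed an FDR of 0.05 for 38 members, 35 with a larger and 3 with a smaller shift in B cells. Over 15101 genes tested, 41.7% passed, 20.3% as larger and 21.4% as smaller in B cells. The day of sorting differed as well as the cell type, so the 2 cannot be told apart in this comparison. Cdc6 (3.77, SE 0.57, adjusted p = 1.38e-05, edgeR) and Mcm10 (3.77, SE 0.57, adjusted p = 1.37e-05, edgeR) differed the most in log2 terms after Clspn, whose fitted difference of 8.82 rests on 0 counts in non-GC B cells. Pole2 differed by 2.72 (SE 0.22, adjusted p = 1.71e-09, edgeR), since it was at 29.3 ± 3.87 CPM in GC B and 3.83 ± 0.887 CPM in non-GC B cells but changed little in T cells. The 3 members with a smaller shift in B cells were Cdt1 (-0.46), Pold1 (-0.50) and Pold3 (-0.53). For 8 members, namely Gins1, Pola1, Prim2, Pole, Rfc3, Fen1, Dna2 and Chaf1a, the difference did not pass the FDR.

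**Figure D3:**
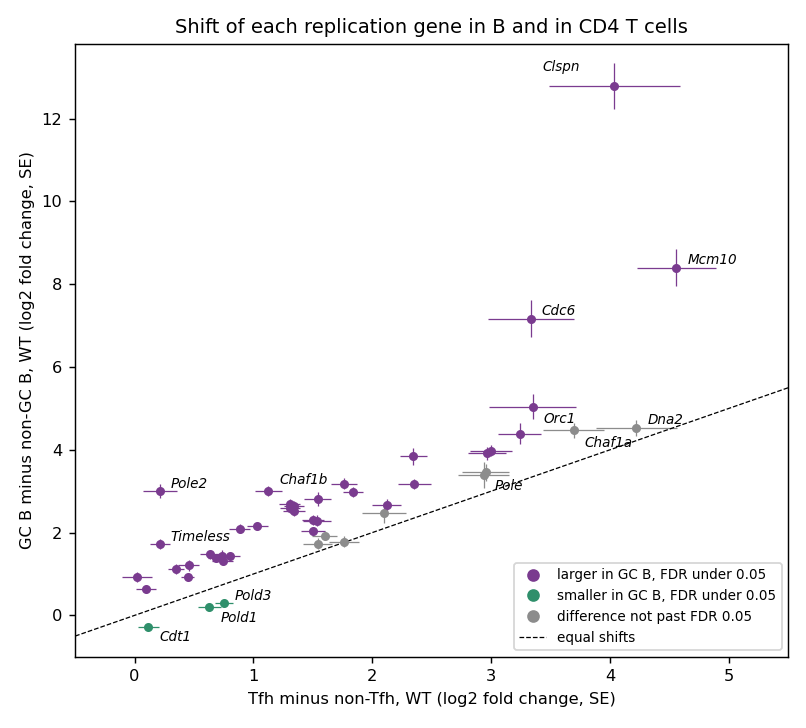
Log2 fold change of each replication gene with its SE in GC B against non-GC B cells (vertical axis) and in Tfh against non-Tfh cells (horizontal axis), WT mice. The dashed line marks equal shifts, 35 genes in purple had a larger and 3 in green (Cdt1, Pold1, Pold3) a smaller shift in B cells by the interaction test, and 8 in grey did not pass it.

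Levels were also compared at both ends of these shifts. Between the populations of the response, 30 members were higher in WT GC B than in WT Tfh cells and 0 were lower (44.3% of 13719 genes passed both thresholds, 20.1% as higher), with a median log2 fold change of 0.69. The largest of these were clamp loader subunits, Rfc1 (1.58), Rfc2 (1.51) and Rfc3 (1.37), and Pold1 (1.12). Rpa1 was lower in GC B cells (log2 fold change -0.26, adjusted p = 0.0028, edgeR), under the fold threshold. Between the comparison populations the members moved both ways. Of 45 tested, 6 were higher and 10 lower in WT non-GC B than in WT non-Tfh cells. That is near the share over all genes, where 38.9% of 13669 passed, 19.7% as higher and 19.1% as lower. These counts therefore do not set the members apart from other genes. Those lower in non-GC B cells included Mcm10 (-2.77), Cdc6 (-2.70), Pole2 (-2.02) and Chaf1b (-1.32), and those higher were Pold1 (1.67), Rfc3 (1.47), Cdt1 (1.14), Rfc2 (1.00), Rfc1 (0.92) and Pold3 (0.72). The 4 population comparisons in WT mice share samples, so their values are given side by side and not as separate evidence.

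The population comparisons were repeated in S1PR4 KO mice. There, 42 of 46 members were higher in GC B than in non-GC B cells (48.2% of 13484 genes passed both thresholds, 25.3% as higher), with a median log2 fold change of 2.47. Cdt1 (-0.12), Gins4 (0.54), Pold1 (0.22) and Pold3 (0.48) did not pass. Cdc6 was at 139 ± 17.8 CPM (SD, n = 6) in KO GC B cells, and the 4 KO non-GC B samples were at 1.66, 0.728, 0.534 and 0.533 CPM. In T cells of KO mice 41 members were higher in Tfh than in non-Tfh cells (43.4% of 13390 genes passed, 22.3% as higher), with a median of 1.72. Cdt1 (0.53), Gins4 (0.37), Pold2 (0.28), Pole2 (0.37) and Rfc1 (0.55) changed by less than 1.5-fold there.

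**Figure D4:**
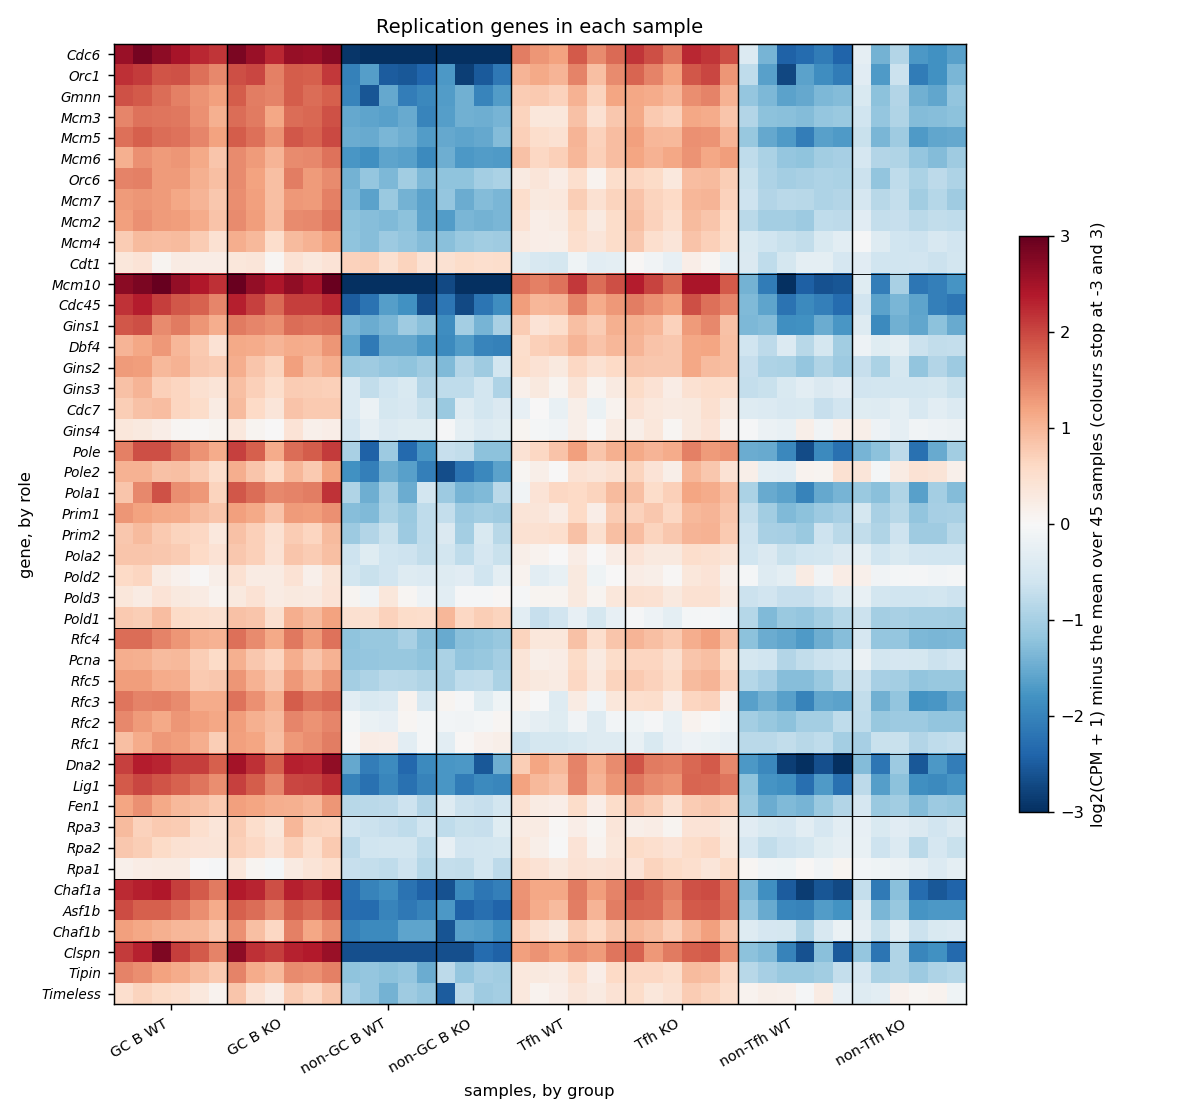
Level of each replication gene (vertical axis, grouped by role) in each of the 45 samples (horizontal axis, grouped by population and genotype), as log2(CPM + 1) minus the gene's mean over all samples, with red above and blue below the mean. Cdc6, Mcm10 and Clspn show the strongest contrast between populations, Cdt1, Pold1 and Pold3 among the weakest.

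The next comparison asked whether the loss of S1PR4 went with a change in the replication genes of each population. In Tfh cells all 46 members had a higher fitted level in S1PR4 KO than in WT samples, with a median log2 fold change of 0.35, where 49.4% of the 13495 genes tested were above 0. No member passed an FDR of 0.05 and a fold change of 1.5 together, which 0.496% of all genes did. At an FDR of 0.05 alone 5 members were higher (0.548% of all genes), and at an unadjusted p under 0.05 there were 43 (9.67% of all genes). The members outside that unadjusted threshold were Dbf4 (0.17), Rpa1 (0.09) and Rpa3 (0.07).

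Mcm6 ranged from 660.7 to 851.1 CPM in WT Tfh samples (median 747.5) and from 888.2 to 1081 CPM in KO Tfh samples (median 964), so that the groups did not overlap. Its log2 fold change was 0.37 (SE 0.07, adjusted p = 0.0274, edgeR). Gins2, a subunit of the active helicase, ranged from 38.6 to 48.7 CPM in WT samples (median 44.7) and from 55.1 to 70.9 CPM in KO samples (median 57.7), again with no overlap (log2 fold change 0.42, SE 0.07, adjusted p = 0.023, edgeR). Cdc7 averaged 42.6 ± 5.51 CPM in WT and 56.4 ± 3.51 CPM in KO samples (SD, n = 6 each, log2 fold change 0.40, SE 0.08, adjusted p = 0.0354, edgeR). Pola2, a subunit of polymerase alpha, averaged 110.3 ± 7.8 and 133 ± 9.06 CPM (0.27, SE 0.06, adjusted p = 0.0479, edgeR). Chaf1a was at 98.2 ± 11.7 and 133.9 ± 15.2 CPM (0.44, SE 0.09, adjusted p = 0.035, edgeR), and its groups overlapped. Groups of 4 members did not overlap, Mcm6, Gins2, Cdc7 and Pola2, against 0.882% of all genes tested.

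By role, all 11 licensing genes, all 9 polymerase and primase genes and all 6 clamp genes passed the unadjusted threshold in Tfh cells, with medians of 0.36, 0.31 and 0.33. The chromatin assembly and Okazaki fragment genes had medians of 0.43 and 0.42, and the single-strand binding genes a median of 0.09.

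Other values moved with genotype in the same Tfh samples. The 12 B cell markers summed to 1461 to 2154 CPM in WT and 1174 to 1718 CPM in KO Tfh samples, with a median log2 fold change of -2.20 (0 of 12 past both thresholds). Ighm, at a mean of 937 CPM in WT Tfh samples, made up a large part of the WT sum. The sums therefore say little of the other B cell markers. The 8 plasma cell markers summed to 285.2 to 662 and 241.4 to 288.8 CPM (3 of the 7 tested past both thresholds as lower), and 7 markers of non-Tfh CD4 cells to 1935 to 2281 and 1172 to 1804 CPM, with no overlap. With the B cell marker score as a covariate, a setting chosen after the data were seen, the median of the members was 0.16, 44 were above 0, 6 passed an unadjusted p of 0.05 and 0 passed the FDR. With the plasma cell marker score it was 0.38 and 0 passed the FDR. Xist, which is expressed from the inactive X chromosome of female cells, also varied, and mice of both sexes were used. It ran from 0 to 28.1 CPM in WT Tfh samples (median 26.4) and from 0 to 23.7 CPM in KO Tfh samples (median 0.0163). With its level as a covariate, likewise chosen after the data were seen, the median of the members was 0.45, 34 passed the FDR and 4 passed both thresholds. Myeloid markers summed to 447.9 CPM in Tfh KO replicate 6, against 25.5 to 96.2 CPM in the other 11 Tfh samples, and without that sample the median was 0.35 and 1 member passed the FDR. The part of the non-Tfh CD4 markers in the difference was not tested.

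The number past the FDR alone also depended on single Tfh samples. Without KO replicates 1 to 6 in turn it was 0, 8, 17, 1, 0 and 1, and without WT replicates 1 to 6 it was 2, 0, 1, 12, 0 and 18. In each of these 12 fits all 46 members stayed above 0, with medians from 0.30 to 0.39. With DESeq2 it was 35.

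The other 3 populations had medians between 0.05 and 0.12. In GC B cells 0 of 46 members passed the FDR in edgeR or DESeq2 (0.0612% of the 13070 genes tested passed both thresholds), and 0 had an unadjusted p under 0.05, which 1.87% of all genes had as higher. The median log2 fold change was 0.09, with 42 members above 0 (51.7% of all genes). Pold1 (0.24, SE 0.11), Pola1 (0.40, SE 0.19) and Mcm6 (0.19, SE 0.11) came first by p-value, each at an adjusted p = 0.985 (edgeR), and their groups overlapped. The lowest scores of each genotype were those of KO replicate 3, in which plasma cell markers summed to 17950 CPM against 2061 to 8504 CPM in the other KO samples, and WT replicate 6, in which markers of non-GC B cells summed to 3447 CPM. Without that KO sample the median was 0.14 and 10 members had an unadjusted p under 0.05. Without that WT sample it was 0.04.

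In non-GC B cells 0 of the 45 members tested passed the FDR in edgeR or DESeq2 (0.0537% of 13038 genes passed both thresholds), and 3 were higher at an unadjusted p under 0.05 (2.35% of all genes), Fen1 (0.22), Pold1 (0.22) and Tipin (0.27), a partner of Timeless. In non-Tfh cells 0 of 46 passed the FDR in edgeR or DESeq2, which 0.0758% of the 13197 genes tested did as higher and 0.159% as lower (0.114% passed both thresholds). At an unadjusted p under 0.05, 5 members were higher there and 1 was lower (5.07% and 6.19% of all genes). Rpa1 (-0.19, adjusted p = 0.24, edgeR), Mcm2 (0.25) and Pole (0.68) came first by p-value. The median there was 0.12, and 0.06 without KO replicate 1, the non-Tfh sample with the highest score (5.37) and with Tfh markers at 486.5 CPM, against 208.7 to 366.8 CPM in the other KO samples. Interaction terms did not separate the genotype difference between populations. Of 46 members, 0 passed the FDR for Tfh against non-Tfh cells (0.0139% of 14401 genes passed), where 11 were larger in Tfh cells at an unadjusted p under 0.05 (3.81% of all genes) and the lowest adjusted p was 0.307 (edgeR). For GC B against non-GC B cells 0 passed (0 of 14490 genes), and 1 had an unadjusted p under 0.05, Clspn, which has counts near 0 in non-GC B cells.

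**Figure D5:**
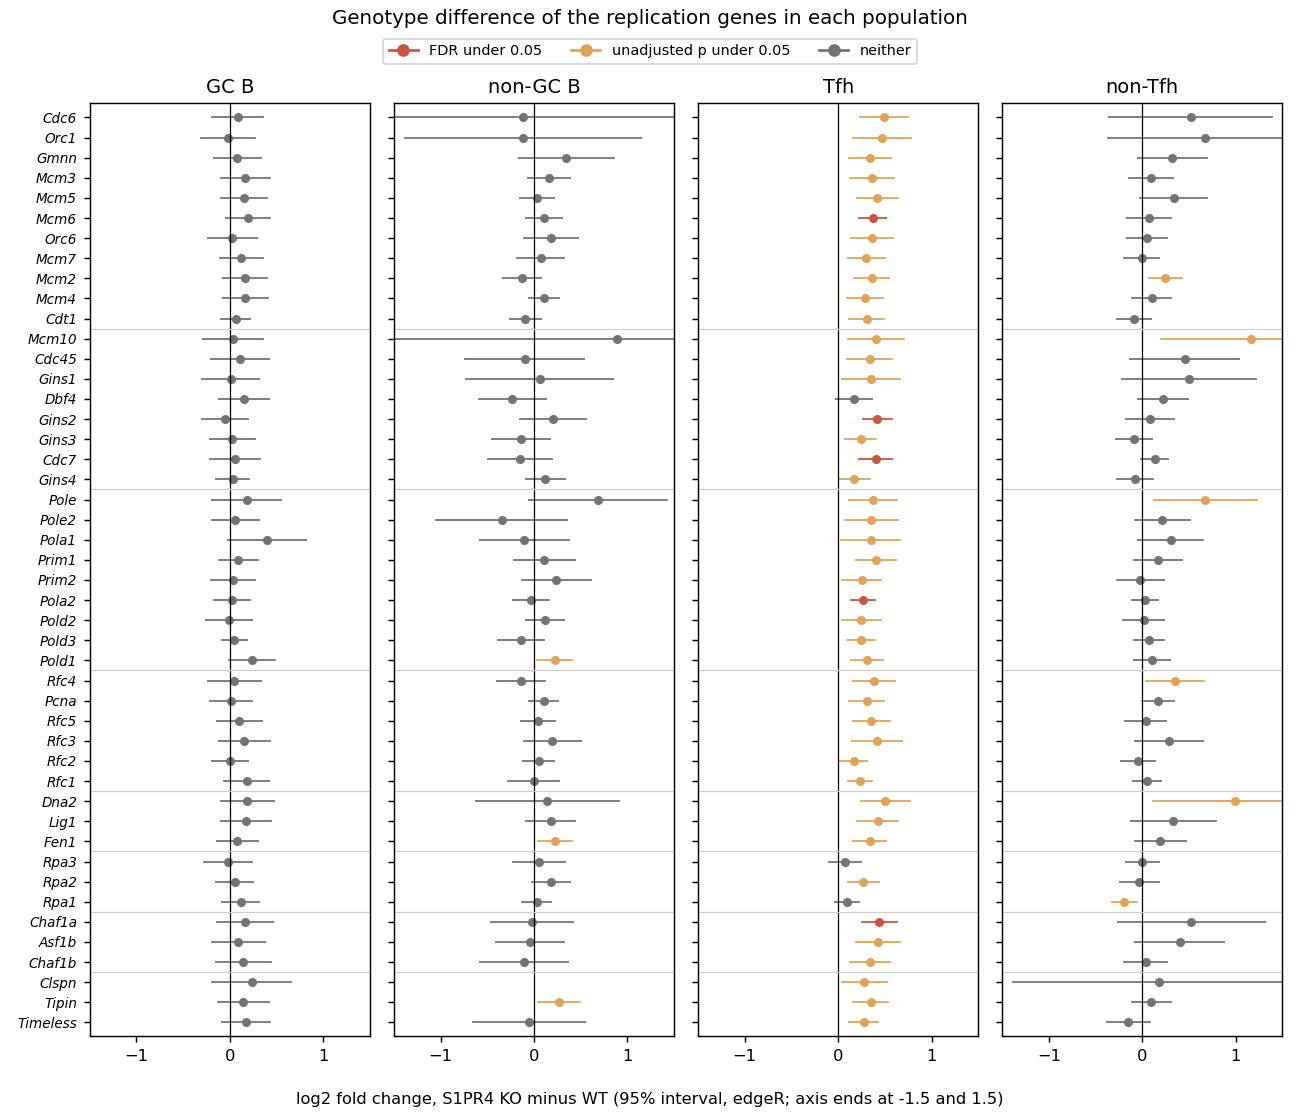
Log2 fold change of each replication gene between S1PR4 KO and WT samples (horizontal axes, with the 95% interval from edgeR) in each of the 4 populations. In Tfh cells all 46 genes lie to the right of 0 and 5 in red passed an FDR of 0.05, and in the other populations none passed it. Clspn was not tested in non-GC B cells.

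Among other genes of the pathway, more were higher than lower in GC B and in Tfh cells. Of 59 further genes in 8 lists, 58 were tested, and 37 were higher and 3 lower in WT GC B than in WT non-GC B cells, where 24.8% of all genes tested were higher and 23.1% lower. Of the nucleotide supply genes 9 of 10 were higher (median log2 fold change 2.75), among them Dut, which keeps uracil out of DNA (2.92, SE 0.12, adjusted p = 2.45e-09, edgeR). All 8 genes of chromatin assembly and maintenance were higher, including Uhrf1 (5.14) and Dnmt1 (2.10), which copy DNA methylation onto the new strand. Among the remaining licensing genes 3 of 9 were higher, including Dtl (5.56), part of the ligase that destroys Cdt1, and Skp2 (2.31). Of the helicase activation genes 5 of 6 were higher, such as Ticrr (4.60) and Wdhd1 (1.67), and Donson was lower (-0.65). Other polymerase subunits (2 of 3 higher) included Pold4 (0.81) and Pole3 (1.05), other clamp loader and unloader subunits (3 of 5) Dscc1 (3.89) and Chtf18 (2.15), and translesion and repair polymerases (4 of 9) Polh (2.60) and Polq (3.14). Of the checkpoint genes Chek1 (5.21) and Wee1 (2.96) were higher, whereas the sensor kinase gene Atr (-0.78) and Rad9a (-0.59) were lower.

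In WT Tfh against non-Tfh cells 28 of these 58 genes were higher and 6 were lower, against 22.8% and 20.4% of all genes tested. The genes higher included Rrm1 (2.38), the large subunit of ribonucleotide reductase, Dtl (3.60), Mcm8 (2.29), Recql4 (2.62), Mtbp (1.37), Pole3 (0.61), Chtf18 (2.37), Dscc1 (2.11), Polq (2.47), Chek1 (3.71), Wee1 (3.10), Uhrf1 (3.69) and Dnmt1 (0.96). Pole4 (-0.55) passed the FDR but not the fold threshold. Those lower were Orc5 (-0.62), the reductase subunit gene Rrm2b (-1.04), the translesion polymerase genes Poli (-0.70) and Rev1 (-1.16), and again Atr (-0.59) and Rad9a (-0.74). Between KO and WT Tfh cells 8 of the 58 passed an FDR of 0.05 as higher in KO samples, which 0.548% of all genes did, and 0 as lower (Dtl 0.43, Recql4 0.55, Ticrr 0.52, Mtbp 0.31, Wdhd1 0.45, Rrm1 0.40, Polq 0.53 and Dnmt1 0.29), and the median of the 58 was 0.18.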

How the data were processed

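Per the labels and the methods of the study, the authors used cutadapt 2.10 for trimming, STAR 2.5.3 for alignment to mm10, Picard to mark duplicates and RSEM 1.3.0 for quantification. They deposited RSEM's expected counts without scaling, of which 8.83% were not whole. Here the counts were rounded, filtered with filterByExpr and scaled by TMM in edgeR 4.0.16 (R 4.3.3), and groups were compared with its quasi-likelihood test, with Benjamini-Hochberg adjustment (FDR) over all genes tested. The thresholds were an FDR of 0.05 with a fold change of 1.5, and the FDR alone for interaction terms. The study's methods name DESeq2 for its own comparisons. DESeq2 1.42.0, limma 3.58.1 (voom), other scalings and filters, a replicate block and leaving out each sample were alternatives. The fits were tested on simulated data in which far fewer genes changed than in the population comparisons here.

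CPM values were scaled by TMM over all 45 samples, and scores used a prior count of 2. The members and lists were chosen with earlier results of these data known. Values and tests were given for the leading member of each role (at least 1 CPM, no overlap), every member short of the thresholds, members past the FDR or else the 3 lowest p-values in genotype comparisons, and the 2 lowest p-values of each other list with any gene moving against it. A gene of the nucleotide supply list that this rule would name is not reported here. Coordinates are from RefSeq on GRCm38.p6, and exon lengths and overlaps from GENCODE M21, which holds 55423 of the table's 55450 symbols; the study's methods name a later GENCODE release. Whether counting used strand is not given in the sources used here. Of the 46 members, 18 overlap a gene on the other strand (Orc1, Orc6, Mcm7, Cdc45, Gins2, Pold1, Pole, Pole2, Rfc2, Rfc4, Rfc5, Lig1, Fen1, Chaf1a and Clspn among them) and 12 a gene on the same strand, so reads could be shared there, and between Pcna and its 2 pseudogenes. Counts limit precision for genes near 0, such as Clspn and Mcm10 in non-GC B cells. The methods give 6 mice per genotype but not which sample came from which, so p-values measure the spread between samples, which may be partly technical. Same-numbered KO Tfh and non-Tfh samples deviated together in 6 of 6 pairs (correlations 0.119 to 0.185). The main fits treated all samples as unpaired. With the replicate block as an alternative, 41 members still passed for KO Tfh against non-Tfh cells.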

Additional observations from a re-analysis of the deposited data

Results flagged for a closer look

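For 38 members the GC B shift differed from the Tfh shift in WT mice by the interaction test, and the genes with the leading values by role were Cdc6 (3.77), Mcm10 (3.77), Pole2 (2.72), Pcna (1.06), Lig1 (0.92), Rpa3 (0.77), Chaf1b (1.81) and Clspn (8.82, against 0 counts in non-GC B cells), with Cdt1 (-0.46), Pold1 (-0.50) and Pold3 (-0.53) smaller in B cells.

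Single samples also stood apart from their group by Dixon's test. Members measured in the same samples are not independent, so chance (about 1 in 20 for independent values) is no firm yardstick. Over 368 combinations of a member and a group, 30 stood apart (8.15%). Of these, 16 were the highest value of non-Tfh KO replicate 1, including Mcm2 at 221 CPM, Gins4 at 59.0, Pold2 at 92.9, Rfc4 at 32.0 and Cdt1 at 55.1 CPM. Non-Tfh WT replicate 1 was highest for Orc6 (21.4 CPM), Cdc6 (16.2 CPM) and Mcm7 (150.4 CPM), and non-Tfh WT replicate 4 was lowest for Rfc3 (9.29 CPM). Among B cells, non-GC B WT replicate 5 was lowest for Mcm3 (67.5 CPM) and Tipin (25.7 CPM), non-GC B WT replicate 4 was highest for Rfc3 (43.3 CPM), and GC B KO replicate 3 was lowest for Cdt1 (72.8 CPM). Among Tfh cells, KO replicate 2 was lowest for Rfc1 (103.5 CPM) and WT replicate 6 was highest for Clspn (18.1 CPM).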

How the results depend on the processing

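The counts of members past both thresholds stayed within 1.5 times their value in the population comparisons and the interaction under every alternative that kept the fold threshold. Leaving out each sample gave 42 to 43 members for GC B against non-GC B cells in each genotype, 37 to 38 (WT) and 41 to 42 (KO) for Tfh against non-Tfh, 28 to 32 for GC B against Tfh, 15 to 18 for non-GC B against non-Tfh, 37 to 39 for the interaction and 0 for each genotype comparison. For KO against WT Tfh cells, the count past both thresholds was 5 without a fold threshold and 4 with Xist as a covariate, and the count past the FDR alone was 35 with DESeq2, 34 with Xist, 0 with the B cell or plasma cell score, 7 with the replicate block and 0 to 18 when each sample was left out; the cause was not tested. In that genotype comparison the replicate block joined KO and WT samples, which come from different mice, by number only. Without a fold threshold, 27 members passed for non-GC B against non-Tfh. Of 3802 values for single genes, 3752 kept direction and call, 11 lost and 17 gained a call, and 22 changed sign, all of them near 0. In non-GC B against non-Tfh cells these were, with total counts, Cdc7 (-0.020), Chaf1a (-0.021), Pola2 (-0.114), Prim1 (-0.0873) and Prim2 (-0.123), and with all 8 groups in one fit, Pola2 (-0.0375), Prim1 (-0.011) and Prim2 (-0.0465). Leaving out single samples gave -0.0404 to 0.0495 for Pola2, -0.0506 to 0.118 for Prim1 and -0.0595 to 0.0596 for Prim2. Pold2 in Tfh against non-Tfh cells was -0.0282 with total counts and -0.0477 to 0.0914 with samples left out. Same-numbered samples correlated over 0.1 in 2 of 6 pairs in WT T cells, 2 of 5 in WT B cells and 0 of 4 in KO B cells, so the replicate block there joins samples that may share only a number, and it changed no other count by over 1.5 times.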

Other observations

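Genes of mitosis, the phase after replication, were listed for reference and moved in the same direction as the replication genes. All 16 were higher in WT GC B than in WT non-GC B cells (median log2 fold change 5.95, where 24.8% of all genes tested were higher), led by p-value by Ccnb2, a cyclin of mitotic entry (7.33, SE 0.25, adjusted p = 7.65e-10, edgeR), and Cdc20, an activator of the anaphase ligase (5.07). All 16 were also higher in WT Tfh than in non-Tfh cells (median 4.28, against 22.8% of all genes), with the lowest p-values for the kinase gene Aurka (4.18) and the kinetochore motor gene Cenpe (4.43). Between KO and WT Tfh cells all 16 were above 0 (median 0.32), 12 had an unadjusted p under 0.05, and the checkpoint kinase genes Bub1 (0.43, adjusted p = 0.0476, edgeR) and Bub1b (0.40, adjusted p = 0.0499, edgeR) passed the FDR. Over all genes tested 49.4% were above 0, 9.67% had an unadjusted p under 0.05 as higher and 0.548% passed the FDR as higher. In GC B cells 0 of 16 had an unadjusted p under 0.05 between genotypes (median 0.12).

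Of the 46 members, 3 lie on chromosome 10 with S1pr4: Prim1, Dna2 and Timeless, at 18.5 to 46.7 Mb from it.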
